A study of Mus musculus with 6 samples.

Results

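Endothelial cells line blood and lymphatic vessels, and 10 genes commonly used to recognise them were followed here in cultures of primary mouse Sertoli cells, the nurse cells of the seminiferous tubule. The genes were Pecam1, Cdh5, Kdr, Tek, Tie1, Emcn, Esam, Cldn5, Sox17 and Sox18. They were found by matching each symbol to its Ensembl identifier, and all 10 were present among the 29275 genes of the files. The study compared 3 libraries from wild-type mice with 3 from mice labelled Arhgef15 cKO, for a conditional deletion of that gene. Both groups were primary cells kept in serum-containing medium with EGF, the wild-type cells being labelled untreated. The labels call the libraries biological replicates. They do not give the Cre driver, the deleted exons, the strain, the age or how many animals stand behind a culture, so a p-value here speaks only for the spread among these 6 cultures, part of which may be technical.

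Endothelial identity is read from proteins at the cell surface and from transcription factors. Cdh5 (VE-cadherin) builds the adherens junctions between endothelial cells, while Pecam1 (CD31), Esam and Cldn5 (claudin-5) lie at the same contacts. Kdr encodes VEGF receptor 2, the main signalling receptor for VEGF-A, and Tek and Tie1 form the angiopoietin receptor system. Emcn encodes a sialomucin of venous and capillary endothelium, and Sox17 and Sox18 are SOXF transcription factors of vascular development. In the testis, vessels run through the interstitium between the tubules, outside the epithelium that Sertoli cells form. Arhgef15 itself encodes a guanine nucleotide exchange factor that is known from endothelial cells.

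Promoter sequences are shown for a pair of paralogous receptors that differed in how they followed the other markers, Tie1 and Tek, and for Emcn, which holds letters of both motif types searched. They are the 250 bases upstream of the RefSeq start site in build GRCm38.p6, 5′ to 3′ on the gene's strand. Tie1 lies at chr4:118489850-118490099 (minus strand), Tek at chr4:94739039-94739288 (plus strand) and Emcn at chr3:137340828-137341077 (plus strand). Capitals mark ETS-type letters (AGGAAG or CGGAAG) and SOX-type letters (AACAAT or AACAAA), read on both strands. The members of each type differ in 1 base and cannot overlap at the same position.
Tie1: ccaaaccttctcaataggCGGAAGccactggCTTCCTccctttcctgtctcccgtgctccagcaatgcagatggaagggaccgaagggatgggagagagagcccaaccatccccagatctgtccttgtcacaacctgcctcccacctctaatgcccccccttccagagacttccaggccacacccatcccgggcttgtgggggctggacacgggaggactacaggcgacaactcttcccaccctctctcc
Tek: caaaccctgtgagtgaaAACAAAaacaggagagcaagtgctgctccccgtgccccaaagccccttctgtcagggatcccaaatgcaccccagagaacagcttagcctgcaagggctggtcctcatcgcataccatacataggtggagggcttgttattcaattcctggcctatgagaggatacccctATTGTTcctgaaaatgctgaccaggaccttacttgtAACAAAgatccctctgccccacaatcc
Emcn: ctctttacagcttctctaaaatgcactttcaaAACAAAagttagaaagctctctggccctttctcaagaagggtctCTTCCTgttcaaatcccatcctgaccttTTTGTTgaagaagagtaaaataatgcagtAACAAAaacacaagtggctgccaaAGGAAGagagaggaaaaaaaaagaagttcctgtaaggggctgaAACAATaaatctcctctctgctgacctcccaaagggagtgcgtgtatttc

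The RefSeq table matched 5 of the 10 genes, these 3 and Kdr and Cldn5. It was not matched by Pecam1, Cdh5, Esam, Sox17 and Sox18. Tie1 held 1 AGGAAG and 1 CGGAAG, Tek held 1 AACAAT and 2 AACAAA, and Emcn held 2 AGGAAG, 1 AACAAT and 3 AACAAA. The Kdr and Cldn5 windows held none of these letters. Among 32851 promoter windows of the same length, 29.5% held AGGAAG, 13.6% CGGAAG, 9.42% AACAAT and 18.0% AACAAA, so single matches of this kind were common. TATAAA, which 12.4% of all windows held, was in none of the 5.

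Levels are given as FPKM, the deposited unit, which scales fragments by exon length and library depth, in replicates 1, 2 and 3 of a genotype in that order. The spacing of the values put the depth at 16790000 to 20320000 fragments per library, and the fragments behind each value follow from it. Arhgef15 transcript was no lower under the cKO label than in wild type, so both groups carry their label as a name only. Its values were 0.123, 0.0237 and 0.349 FPKM for wild type and 0.501, 0.322 and 0.338 FPKM for cKO. They rested on only 3 to 63 fragments each, and the value covers the whole gene and may not report a deletion of some exons. Sertoli cell markers did not move together. Of 20 listed, 10 were lowest in wild-type libraries 1 and 2, and 2, Inhbb and Sox8, were highest there. Sox9, which drives Sertoli cell differentiation, was at 5.97, 5.10 and 20.2 FPKM for wild type and 22.3, 24.1 and 35.6 FPKM for cKO. Fshr, the receptor for follicle-stimulating hormone, was listed at 0 in wild-type libraries 1 and 2 and at 0.202 to 1.42 FPKM in the other 4. Gata4, a transcription factor of gonadal somatic cells, was at 63.1, 48.4 and 29.6 FPKM for wild type and 52.1, 41.5 and 55.9 FPKM for cKO. Inhbb, an inhibin and activin subunit, was at 65.7, 85.4 and 6.04 FPKM for wild type and 18.1, 15.4 and 32.6 FPKM for cKO.

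The endothelial markers were lowest in wild-type libraries 1 and 2, and wild-type library 3 resembled the cKO libraries. In FPKM as deposited, both of these wild-type libraries lay below the other 4 for 9 of the 10 markers, Tek being the exception. Of all 12284 genes past the expression filter 22.7% had that order. For Cdh5 the order of libraries depended on the scaling. Its Spearman rho with Pecam1 fell from 0.83 to 0.54 under median-ratio scaling of the libraries. In wild-type library 3, 9 markers lay inside the range of the cKO values, Sox18 being the exception. All 10 markers were highest in cKO library 1, against 15.3% of all filtered genes. The 10 genes together held 2715, 2456 and 5521 fragments in wild-type libraries and 7988, 4297 and 4634 in cKO libraries. Cdh5 alone held most of these fragments in every library. Without Cdh5 and Sox18 the sums were 207, 170 and 2093 for wild type and 2911, 854 and 1597 for cKO.

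**Figure D1:**
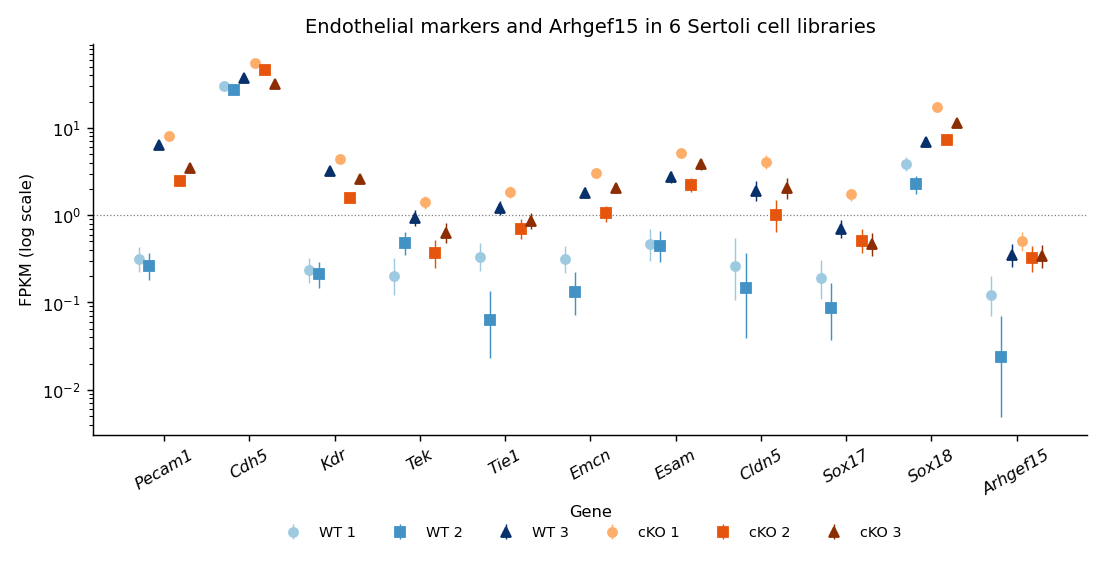
FPKM (log scale) of the 10 endothelial markers and Arhgef15 in each library. Points are single libraries, bars are exact Poisson 95% intervals (counting error only) and the dotted line is 1 FPKM. Cdh5 stayed between 27.0 and 55.6 FPKM while 8 other markers were under 1 FPKM in both wild-type libraries 1 and 2.

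Among the junction proteins, Pecam1 (ENSMUSG00000020717) had the widest spread of the 10 markers. It was listed at 0.317, 0.263 and 6.43 FPKM for wild type and at 7.99, 2.49 and 3.52 FPKM for cKO. Wild-type library 3 was thus the second highest of all 6, and the genotypes overlapped. The values rested on 37, 32 and 814 fragments for wild type and on 964, 260 and 440 for cKO. The highest library held 30.3 times the level of the lowest, and their counting intervals did not overlap, being 0.180 to 0.372 FPKM in wild-type library 2 and 7.49 to 8.51 FPKM in cKO library 1. Group means were 2.34 ± 3.55 and 4.66 ± 2.92 FPKM (wild type and cKO, SD, n = 3 each).

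Cdh5 (ENSMUSG00000031871), which encodes the junctional cadherin regarded as specific for endothelium, did not follow this pattern in size. Its values were 30.3, 27.0 and 37.5 FPKM for wild type and 55.6, 46.0 and 31.6 FPKM for cKO, a 2.06-fold range. It rested on 2215 to 4527 fragments per library, the most of any marker. Cdh5 was the only marker above 10 FPKM in wild-type libraries 1 and 2, and the counting intervals of cKO library 3 and wild-type library 1 overlapped. The ratio of Cdh5 to Pecam1, both per length, was 95.7 and 103 in wild-type libraries 1 and 2. It was 5.83 in wild-type library 3 and 6.96, 18.5 and 8.99 in the cKO libraries.

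Esam and Cldn5 followed Pecam1 more closely than Cdh5 did. Esam (ENSMUSG00000001946), an immunoglobulin-family adhesion molecule, was at 0.465, 0.447 and 2.76 FPKM for wild type and 5.15, 2.22 and 3.82 FPKM for cKO. Wild-type library 3 lay between cKO libraries 2 and 3, and its counting interval overlapped that of cKO library 2. Cldn5 (ENSMUSG00000041378), a tight junction claudin that is not restricted to endothelium, was at 0.264, 0.145 and 1.91 FPKM for wild type and 4.08, 1.01 and 2.04 FPKM for cKO. In wild-type libraries 1 and 2 this came from 7 and 4 fragments, and in cKO library 1 from 112. Wild-type library 3 and cKO library 3 differed by less than the counting error for Cldn5.

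The receptors were low throughout. Kdr (ENSMUSG00000062960) was listed at 0.236, 0.210 and 3.19 FPKM for wild type and at 4.38, 1.58 and 2.58 FPKM for cKO, and had the same order of libraries as Pecam1. Its neighbours in that order differed beyond the counting error, except wild-type libraries 1 and 2 with 40 and 37 fragments. Tie1 (ENSMUSG00000033191), the orphan partner of the angiopoietin receptor, was at 0.336, 0.0626 and 1.22 FPKM for wild type and 1.86, 0.703 and 0.860 FPKM for cKO. The lowest of these values rested on 6 fragments (exact Poisson 95% interval 2.20 to 13.1). The library order of Tie1 was again that of Pecam1, with overlapping counting intervals between wild-type library 3 and cKO library 3 and between cKO libraries 3 and 2.

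Tek (ENSMUSG00000006386), the receptor that binds angiopoietins, departed from its paralog. It was at 0.204, 0.479 and 0.929 FPKM for wild type and 1.40, 0.367 and 0.623 FPKM for cKO. Wild-type library 2 lay above cKO library 2, although their counting intervals overlapped with 44 and 29 fragments. The ratio of Tek to Tie1 was 7.65 in wild-type library 2 and 0.522 to 0.761 in the other 5 libraries. Only wild-type library 2 therefore held more Tek than Tie1 per length.

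Emcn (ENSMUSG00000054690), the sialomucin, was at 0.316, 0.133 and 1.81 FPKM for wild type and 3.03, 1.05 and 2.04 FPKM for cKO. Wild-type library 3 and cKO library 3 did not differ beyond the counting error, and both other wild-type libraries were well below all cKO values.

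The SOXF pair differed in level. Sox18 (ENSMUSG00000046470) was listed at 3.88, 2.25 and 6.87 FPKM for wild type and at 17.5, 7.32 and 11.3 FPKM for cKO. It was the only marker whose 3 cKO values all lay above its 3 wild-type values, an order that 6.28% of all filtered genes showed. The gap was narrow, since cKO library 2 and wild-type library 3, with 199 and 226 fragments, had overlapping counting intervals. Group means were 4.33 ± 2.34 and 12 ± 5.14 FPKM (wild type and cKO, SD, n = 3 each). Sox17 (ENSMUSG00000025902) was at 0.190, 0.0860 and 0.701 FPKM for wild type and 1.73, 0.512 and 0.469 FPKM for cKO. Apart from cKO library 1, which was higher than every other library, the cKO values of Sox17 lay below wild-type library 3 with overlapping counting intervals. Sox18 exceeded Sox17 per length by 9.79-fold to 26.1-fold. A processed transcript, Gm37587, shares 804 bases of exon with Sox17 on the opposite strand, and without a stated strand its fragments cannot be separated.

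**Figure D2:**
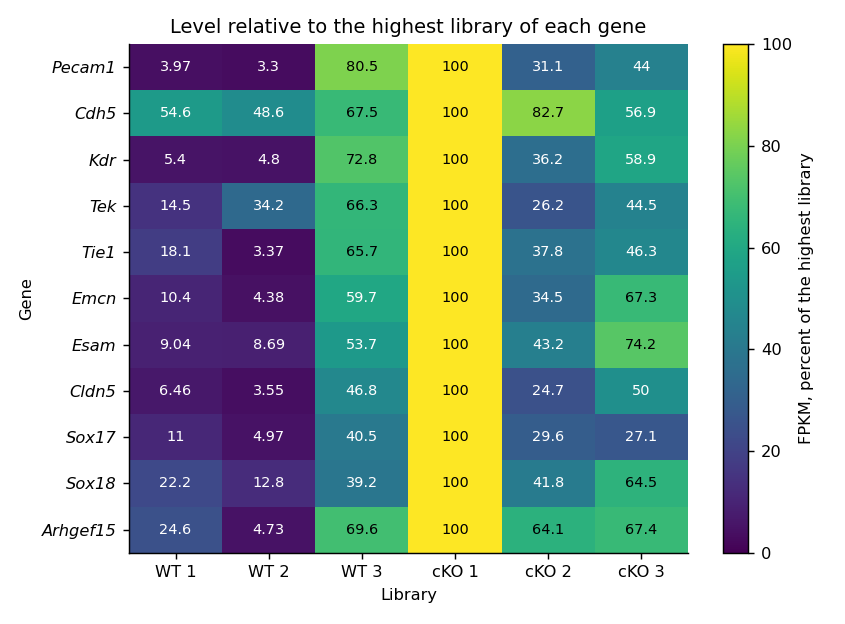
FPKM of each gene as a percentage of its highest library, for the 10 markers and Arhgef15 (rows) in the 6 libraries (columns). Pecam1 fell to 3.30% of its highest level in wild-type library 2, whereas Cdh5 did not fall below 48.6% in any library.

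Parts of the order of the libraries were shared by most markers, but no full order was. Pecam1, Kdr and Tie1 had one and the same order: cKO library 1 highest, then wild-type library 3, cKO libraries 3 and 2, and wild-type libraries 1 and 2. Emcn, Esam and Cldn5 had another, in which cKO library 3 and wild-type library 3 changed places. Cdh5, Tek, Sox17 and Sox18 each had an order of their own. Across the 6 libraries Pearson r of log2(FPKM + 1) exceeded 0.9 for 22 of the 45 pairs of markers. None of the 9 pairs with Cdh5 did so, with r from 0.62 to 0.89, nor did the 9 pairs with Tek, with r from 0.62 to 0.87. Spearman rho over all pairs ran from 0.54 to 1.00. Because wild-type libraries 1 and 2 formed a separate low cluster for most markers, these values describe the libraries and were not tested. Without the 2 libraries farthest from the median of the first gene, r ran from 0.26 to 0.99 over 4 libraries and exceeded 0.9 for 16 pairs, of which 2 held Cdh5 and 2 held Tek. The libraries left out there differ between genes. Over wild-type library 3 and the cKO libraries alone, r exceeded 0.9 for 5 of the 9 pairs with Tek and for 0 of the 9 with Cdh5. A genotype of 3 libraries is too small for a correlation of its own.

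Arhgef15 itself had the library order of Pecam1, Kdr and Tie1. Its Pearson r with the mean log2(FPKM + 1) of the 10 markers was 0.98 over the 6 libraries, at 3 to 63 fragments per library. That mean was 1.02, 0.88 and 2.1 for wild type and 2.68, 1.73 and 2.03 for cKO. Among 10977 filtered genes, a set that leaves out Arhgef15, 346 had r over 0.9 with this mean. How many of them reached the value of Arhgef15 was not counted. The 10 highest were AV356131, B4galt3, Arap3, Notch4, Supt5, Dll4, Zfp687, Zfyve27, Tox2 and Phrf1, with r from 0.986 to 0.991. A pair of these belong to the Notch pathway of vessels. The Notch ligand Dll4 was at 0.0969, 0.0399 and 2.16 FPKM for wild type and 2.89, 0.897 and 1.54 FPKM for cKO. The receptor Notch4 was at 0.940, 0.980 and 3.77 FPKM for wild type and 6.38, 1.97 and 3.22 FPKM for cKO. Supt5, a general transcription elongation factor, varied far less, from 22.1 to 36.4 FPKM.

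Between genotypes, the mean of each of the 10 markers was higher for cKO, and 0 of them passed the test (limma, Benjamini-Hochberg adjusted p from 0.608 to 0.921). Over all genes 0.0163% passed. The median difference of the 10 markers was 0.91 on the log2(FPKM + 1) scale, beside 0.08 over all 12284 filtered genes, of which 59.8% were higher. At an unadjusted p under 0.05 there were 2 markers, Sox18 and Esam, where 3.87% of all filtered genes were higher at that level. Sox18 differed by 1.31 with an SE of 0.41 (limma, adjusted p = 0.608) and Esam by 1.19 with an SE of 0.43 (adjusted p = 0.655). Pecam1 differed by 1.17 with an SE of 0.71 (adjusted p = 0.797). Cdh5 differed by 0.45 and Tek by 0.21 (limma, adjusted p = 0.786 and 0.921). By exact permutation of the libraries (two-sided), p was 0.1 for Sox18, the smallest value that 3 against 3 allows, and 0.2 to 0.6 for the other 9.

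A filter of at least 1 FPKM in at least 3 of 6 libraries was passed by 7 markers. Pecam1, Kdr, Emcn, Esam and Cldn5 passed through the 3 cKO libraries and wild-type library 3, and Cdh5 and Sox18 passed in all 6. Tek, Tie1 and Sox17 did not pass and were read from the same model over all 29275 genes. In bulk RNA, fewer endothelial cells and less RNA per cell cannot be told apart.

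The calls depended on wild-type library 3. Without it, 9 of the 10 markers had all cKO values above both remaining wild-type values in deposited FPKM, an order that 25.9% of filtered genes then showed. Cdh5 was among the 9, and its order of libraries changed under median-ratio scaling. In the fit without wild-type library 3, 3 markers passed, where 2.47% of all filtered genes were called higher. All 3 were under 1 FPKM in both remaining wild-type libraries, so among the libraries left they met the filter only through the cKO libraries, where they were high. Their count is a description and no support for a difference. Pecam1 differed by 2.01 (SE 0.40, limma adjusted p = 0.0441), Kdr by 1.59 (SE 0.33, adjusted p = 0.0491) and Esam by 1.65 (SE 0.31, adjusted p = 0.0373) on the log2(FPKM + 1) scale. Sox18 was at 1.64 (adjusted p = 0.0598) and Cdh5 at 0.58 (adjusted p = 0.250). Without cKO library 1 the Tek difference turned to -0.019, and the other 9 stayed positive.

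**Figure D3:**
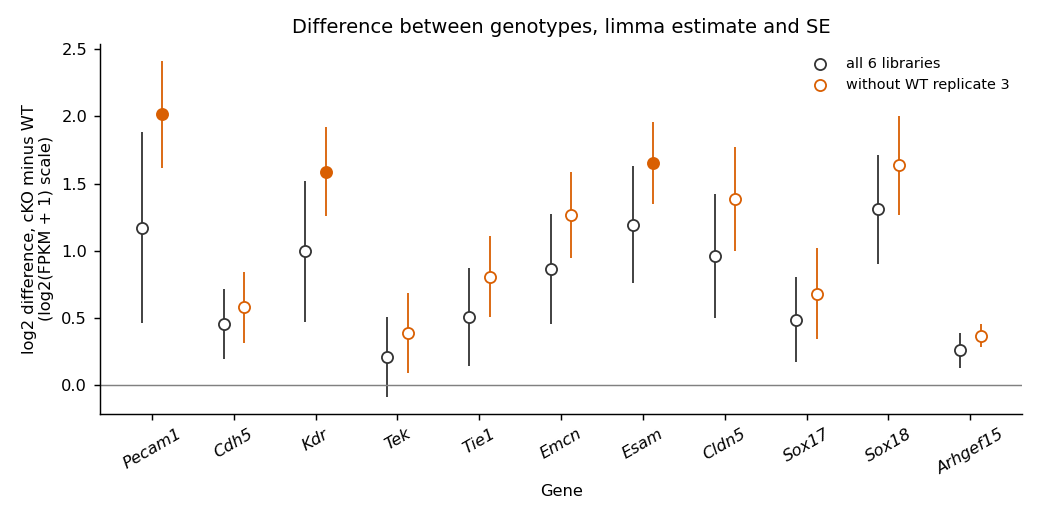
Difference between genotypes (cKO minus wild type, log2(FPKM + 1) scale) for the 10 markers and Arhgef15, with all 6 libraries (black) and without wild-type replicate 3 (orange). Points are limma estimates, bars are 1 SE and filled points have an adjusted p under 0.05. Filled points are Pecam1, Kdr and Esam without wild-type replicate 3.

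A wider list of 36 endothelial genes, Arhgef15 included, showed a mixed picture. Of these, 29 were higher on average for cKO, 4 did not overlap between genotypes and 0 passed the test in either direction (5 at an unadjusted p under 0.05, all higher), with a median difference of 0.41. Over all filtered genes 6.28% did not overlap with cKO higher and 3.87% were higher at that unadjusted p. Of the 36, 21 passed the filter. The others, Erg and Nos3 among them, were read from the fit over all 29275 genes, of which 818 were higher at that p. Wild-type libraries 1 and 2 were lowest for 25 of the 36, against 22.7% of all filtered genes. These libraries were highest for 3 of the 36, Fli1, Cd34 and Ecscr. Here and in the lists that follow, higher or lower on average refers to means of log2(FPKM + 1). By means of FPKM 28 of the 36 were higher. Erg, an ETS factor of endothelial identity, was at 0.108, 0.0592 and 0.696 FPKM for wild type and 1.62, 0.842 and 1.25 FPKM for cKO. Nos3, the endothelial nitric oxide synthase, was at 0.0645, 0.0372 and 0.298 FPKM for wild type and 1.37, 0.577 and 0.699 FPKM for cKO. In both genes all cKO values lay above all wild-type values (limma, adjusted p = 0.903 for each). Rasip1, a Rap and Ras effector of vessel lumen formation, was at 0.267, 0.144 and 0.799 FPKM for wild type and 2.21, 1.19 and 1.18 FPKM for cKO (adjusted p = 0.615).

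The most abundant genes of the wider list behaved in different ways. Eng (endoglin, a TGF-beta co-receptor) was highest in wild-type library 1, at 88.7, 72.8 and 36.1 FPKM for wild type and 73.3, 44.6 and 46.0 FPKM for cKO. Thbd (thrombomodulin) was at 76.8, 87.1 and 321 FPKM for wild type and 308, 175 and 132 FPKM for cKO. Procr, the protein C receptor, was at 7.20, 4.97 and 22.2 FPKM for wild type and 24.3, 26.7 and 7.94 FPKM for cKO. Thbd and Procr were lowest in wild-type libraries 1 and 2, and Eng was lowest in wild-type library 3. Fli1, another ETS factor that blood cells also express, was at 1.45, 1.53 and 0.720 FPKM for wild type and 0.918, 0.530 and 1.21 FPKM for cKO. Fli1 was picked out with its values in view.

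Subtype and activation genes of endothelium were higher on average for cKO in 17 of 20, with 0 past the test (3 at an unadjusted p under 0.05, all higher, against 3.87% of all filtered genes) and a median difference of 0.49. Over all filtered genes 59.8% were higher on average. Angpt2, the angiopoietin stored by endothelial cells, was at 1.27, 0.500 and 11.4 FPKM for wild type and 20.5, 9.64 and 15.8 FPKM for cKO (limma, adjusted p = 0.650). Pdgfb, which recruits mural cells, was at 3.95, 3.04 and 38.1 FPKM for wild type and 56.2, 53.7 and 44.2 FPKM for cKO (adjusted p = 0.608). Without wild-type library 3, 3 of the 20 genes passed, Angpt2 and Pdgfb among them (limma, adjusted p = 0.0111 and 0.00391). In that fit 2.47% of all filtered genes were called higher. As for the markers, this count is a description and no support for a difference. Selp, the P-selectin gene, was at 0, 0.0116 and 1.01 FPKM for wild type and 2.31, 2.61 and 0.451 FPKM for cKO. Wild-type libraries 1 and 2 were the lowest for 15 of these 20 genes, an order that 22.7% of all filtered genes had.

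The ligands of the VEGF and angiopoietin families did not share a single order of libraries. Over 16 VEGF and angiopoietin genes, which include Kdr, Tek, Tie1 and Angpt2 again, 12 were higher on average for cKO (11 by means of FPKM) and 0 passed the test. At an unadjusted p under 0.05, 1 was higher and 1 lower, against 3.87% and 2.94% of all filtered genes. Of all filtered genes 59.8% were higher on average. Vegfa, the main ligand of Kdr, was at 29.3, 31.4 and 207 FPKM for wild type and 177, 161 and 67.9 FPKM for cKO. Pgf, placental growth factor, a ligand of Flt1, was at 7.33, 2.81 and 41.1 FPKM for wild type and 33.7, 25.9 and 12.9 FPKM for cKO. Vegfd went the other way at 89.8, 146 and 9.16 FPKM for wild type and 9.38, 6.23 and 14.7 FPKM for cKO (limma, adjusted p = 0.701). Vegfc, a ligand of Flt4, was at 8.30, 10.0 and 6.67 FPKM for wild type and 7.06, 16.5 and 7.36 FPKM for cKO. For Vegfa, Pgf and Vegfd wild-type library 3 stood with the cKO libraries or beyond them.

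Markers of several other cell types also set wild-type libraries 1 and 2 apart, and their part in the endothelial values was not tested. The 20 Sertoli markers added up to 435, 435 and 1015 FPKM for wild type and 745 to 1086 FPKM for cKO, and 15 of 20 were higher on average for cKO (14 by means of FPKM). Of these 5 were so at an unadjusted p under 0.05, against 3.87% of all filtered genes. The filter was passed by 18 of the 20 Sertoli markers, and the others were read from the fit over all genes. Of 14 macrophage and leukocyte markers 13 were lower on average for cKO, 6 of them at an unadjusted p under 0.05 against 2.94% of all filtered genes, with sums of 1224, 975 and 244 FPKM for wild type and 156 to 296 FPKM for cKO. Lyz2, a lysozyme of myeloid cells, made up 648 of the first of these sums. The 11 mural and pericyte markers, of which 6 were higher on average for cKO, summed to 2954, 2329 and 517 FPKM for wild type and 692 to 1226 FPKM for cKO, nearly all of it Acta2, the smooth muscle actin gene, at 2853, 2240 and 432 FPKM for wild type. Wild-type libraries 1 and 2 were highest for 3 of the 11 and lowest for 2, Rgs5 and Cspg4. The 7 germ cell markers did not set those libraries apart. Wild-type libraries 1 and 2 were lowest for 0 of them, and 6 were lower on average for cKO (2 of 7 were higher by means of FPKM), with sums of 70.3, 39.3 and 171 FPKM for wild type and 209, 38.1 and 13.0 FPKM for cKO.

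The remaining lists had various orders. Fibroblast and stromal markers, with 7 of 9 lower, summed to 495 to 983 FPKM for wild type and 551 to 891 FPKM for cKO. Leydig markers, with 3 of 6 lower, summed to 197 to 362 FPKM and 142 to 241 FPKM. Platelet, blood progenitor and erythroid markers, 9 of 11 being in the files and 5 lower, summed to 699, 571 and 246 FPKM for wild type and 243, 110 and 141 FPKM for cKO, mostly Pf4, which macrophages can also express. The platelet integrin Itga2b stayed at 0.235 to 0.492 FPKM and the globin genes Hba-a1 and Hbb-bs did not exceed 0.394 FPKM. Epithelial, rete testis and mesothelial markers, with 5 of 10 lower, summed to 11, 4.22 and 57.1 FPKM for wild type and 41.8, 19.7 and 13.0 FPKM for cKO. That sum was lowest in wild-type libraries 1 and 2, as for the endothelial markers. Only 2 of the 10 genes, Epcam and Cdh1, had this order themselves, beside 22.7% of all filtered genes. No marker of these lists was at 0 in all 6 libraries, and 0 members of any list passed the test with all 6 libraries (limma, adjusted p under 0.05).

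**Figure D4:**
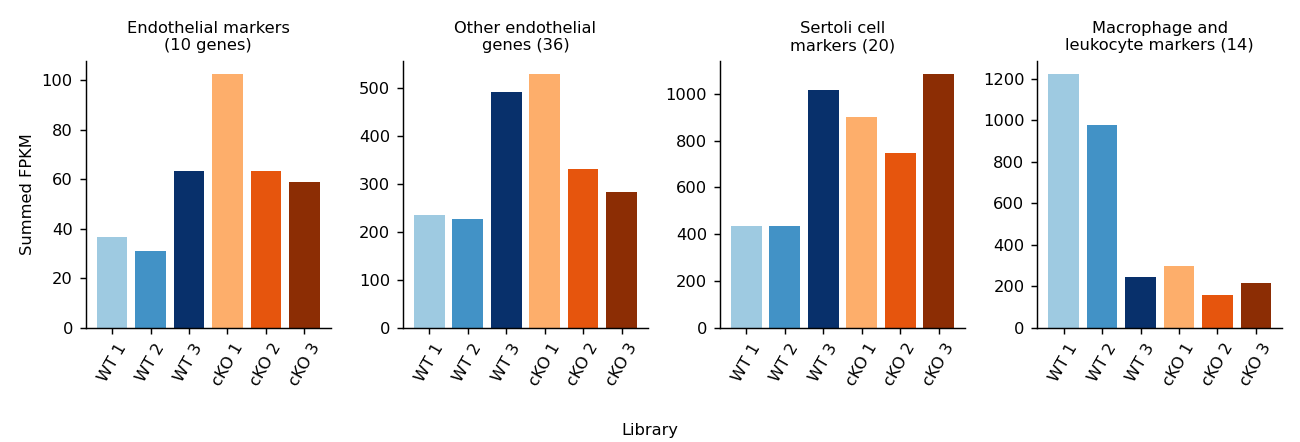
Summed FPKM per library for the 10 endothelial markers, 36 other endothelial genes, 20 Sertoli cell markers and 14 macrophage and leukocyte markers (bars, 1 per library, axes starting at 0). Wild-type libraries 1 and 2 are lowest in the first 3 panels and highest in the last. Cdh5 makes up the greater part of each bar in the first panel. Abundant genes also weigh on the next 2 panels. In wild-type library 3, Thbd holds 321 of 493 FPKM in the second panel and Clu 476 of 1015 FPKM in the third.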

How the data were processed

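Each of the 6 files held 1 value per gene. The authors used FastQC, HISAT2 2.1.0 and build mm8, per the submitters' processing notes, which name no counter, annotation or strandedness. The deposited values were taken as FPKM from the files: value times exonic length (GENCODE M21) was a whole number of steps, with 1 step size for each library, within 0.02 times the fragment number for 99.1% to 99.5% of single-exon values up to 10 fragments. The step gave depth and fragments, and exact Poisson 95% intervals cover counting error only. Symbols matched 28932 of 29275 identifiers.

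limma 3.58.1 in R 4.3.3 (trended eBayes, two-sided p, Benjamini-Hochberg over all genes, threshold 0.05) was fitted to log2(FPKM + 1) with genotype as the only term, on the 12284 genes that reached 1 FPKM in 3 or more of the 6 libraries. Fold changes of low genes are understated on this scale. Listed genes below the filter were read from the fit over all genes. Python 3.11.15 was used otherwise. Permutation tests planned for marker correlations are not reported, because the libraries form clusters. Alternatives were other filters, pseudocounts, scalings, array weights, a replicate block and each library left out. The markers and lists were chosen with earlier results of these data known. Named genes were the 10 markers, Arhgef15, in each list up to 4 of the highest mean and 3 of the smallest p, and the 10 genes most like the marker mean. Not every gene so eligible is named. Fshr, Inhbb, Sox8, Vegfc, Rgs5, Fli1, Cd34, Ecscr, Itga2b and the globin genes fall outside the rule and were named after their values were seen.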

Additional observations from a re-analysis of the deposited data

How the results depend on the processing

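The marker differences kept their direction in every setting run, except Tek, which ranged from -0.019 (without cKO replicate 1) to 0.39 (without WT replicate 3) with a library left out. The count of markers past the threshold was 0 with other filters, pseudocounts, scalings, a threshold of 0.1 and the replicate block, and 0 to 3 with a library left out, the 3 without WT replicate 3. A filter of 5 FPKM tested only 2 markers, Cdh5 and Sox18, and the others were read from the fit without a filter. The median log2 difference of the 10 markers was 0.91, 1.65 with a pseudocount of 0.1 and 0.35 with a pseudocount of 5, and from 0.62 (without cKO replicate 1) to 1.32 (without WT replicate 3) with a library left out. Over all genes the count was 2. It became 0 with no filter and 0 with the replicate block, and ranged from 0 to 478 with a library left out. No pairing by replicate number was seen: deviations of equal numbers correlated at 0.14, 0.03 and -0.21. Those of unequal numbers ran from -0.45 to 0.48. With deviations from means of 3 libraries, these values cannot exclude a pairing. Array weights by REML stopped before convergence, gave WT replicate 2 the lowest weight (0.24) and left the counts at 2 and 0. Weights estimated gene by gene, chosen after seeing the data, gave WT replicate 3 the lowest weight (0.26) and WT replicate 2 the highest (3.80). They called 1229 genes, 5 of them markers. The cause of these changes was not tested. Marker pairs with r over 0.9 numbered 22, within 1.5 times in each alternative. That count says little about Cdh5, which was in none of these pairs with all 6 libraries. Under median-ratio scaling r of the pairs with Cdh5 ran from 0.43 to 0.80, against 0.62 to 0.89 in the main setting. Small fragment counts limit Tie1, Cldn5 and Sox17, with 4 to 8 fragments in WT replicate 2.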
